A study of Mus musculus with 8 samples.

Results

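The 10 genes described here are regulators and markers of mesenchymal cells: the transcription factor pairs Twist1 and Twist2, Snai1 and Snai2, Zeb1 and Zeb2, and Prrx1 and Prrx2, together with the receptor gene Pdgfra and the intermediate filament gene Vim. They were listed by name, 10 of 21887 protein-coding genes, and each was read with every peak that touched its RefSeq span or the 20 kb on either side of it. The measurement was ChIP-seq of H2AK119ub, histone H2A with ubiquitin on a lysine of its tail, in basal epidermal progenitors of mice at postnatal day 0. Back skin cells were sorted as positive for EpCAM and Sca1 and high for α6-integrin. The compared groups were Eed cKO (genotype Eed-/-, 2 H2AK119ub libraries) and Control (2 H2AK119ub libraries), each deposited as 1 peak list. The promoter or Cre line that deletes Eed, and the animals behind each library, are not named in the labels. Neither the Ring1a/b 2KO library (genotype Ring1a-/- Ring1b-/-) nor the 3 inputs were analysed here.

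H2AK119ub is placed by Polycomb repressive complex 1, and Eed is a core subunit of Polycomb repressive complex 2, which methylates H3K27. Both complexes are known to sit on developmental regulators that a cell type keeps silent. Twist, Snail and Zeb factors bind E-box sequences and are best known for repressing epithelial genes such as Cdh1 during the epithelial-to-mesenchymal transition (EMT), in which epithelial cells give up their junctions and become motile. Prrx factors are homeodomain proteins of limb, craniofacial and skin mesenchyme, Pdgfra encodes a growth factor receptor of fibroblasts, and vimentin is the main intermediate filament of mesenchymal cells.

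Over the genome, 2541 peaks (16.6 Mb) were listed for Eed cKO and 4621 peaks (29.0 Mb) for control. Peaks carried positions alone, with no score, so the measured quantities are the place and width of each peak. With 1 list per genotype there is no replicate error and no test. Read depth behind the lists is unknown, and a gene without a peak in the shorter list cannot be told apart from one whose signal fell under the threshold of that list. No peak of either list touched the spans of the sorting markers Epcam, Ly6a and Itga6 or the basal keratinocyte genes Krt5, Krt14, Trp63 and Itgb4. Within 20 kb of these genes there was no peak in Eed cKO and 1 in control, 3.91 kb wide, beside Krt5. A repressive mark is no measure of expression, so this checks no cell type.

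In Eed cKO 4 of the 10 genes (Twist1, Twist2, Snai1 and Vim) had an H2AK119ub peak in their window, against 9 of 10 in control. Snai2 had none in either list. Zeb1, Zeb2, Prrx1, Prrx2 and Pdgfra had peaks in control alone. Over all protein-coding genes, 14.3% had an Eed cKO peak and 21.2% a control peak in the same kind of window. All 4 genes with an Eed cKO peak had a control peak that it overlapped by at least 1 bp. Of the 3131 protein-coding genes with an Eed cKO peak in their window, 2552 also had a control peak there, overlapping or not. Of the 4635 genes with a control peak in their window, 51.6% had one that met an Eed cKO peak, and 55.1% had any Eed cKO peak in the window. The members' share, 4 of 9, stood near these values. Of the 16 control peaks in the windows 5 met an Eed cKO peak, against 37.9% of the whole control list.

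The windows of the 10 genes held 4 Eed cKO peaks with a summed width of 29.24 kb and 16 control peaks with a summed width of 137.89 kb. Eed cKO peaks covered 19.7% of those control bases, against 36.8% over the whole control list. In the other direction, 93.1% of the Eed cKO bases lay inside control peaks, against 64.2% over the whole Eed cKO list. The 5 control peaks overlapped by an Eed cKO peak were 2665 to 29995 bp wide, with a median of 7057 bp. The 11 others were 1447 to 16701 bp wide, with a median of 5976 bp, so the width ranges overlapped.

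**Figure D1:**
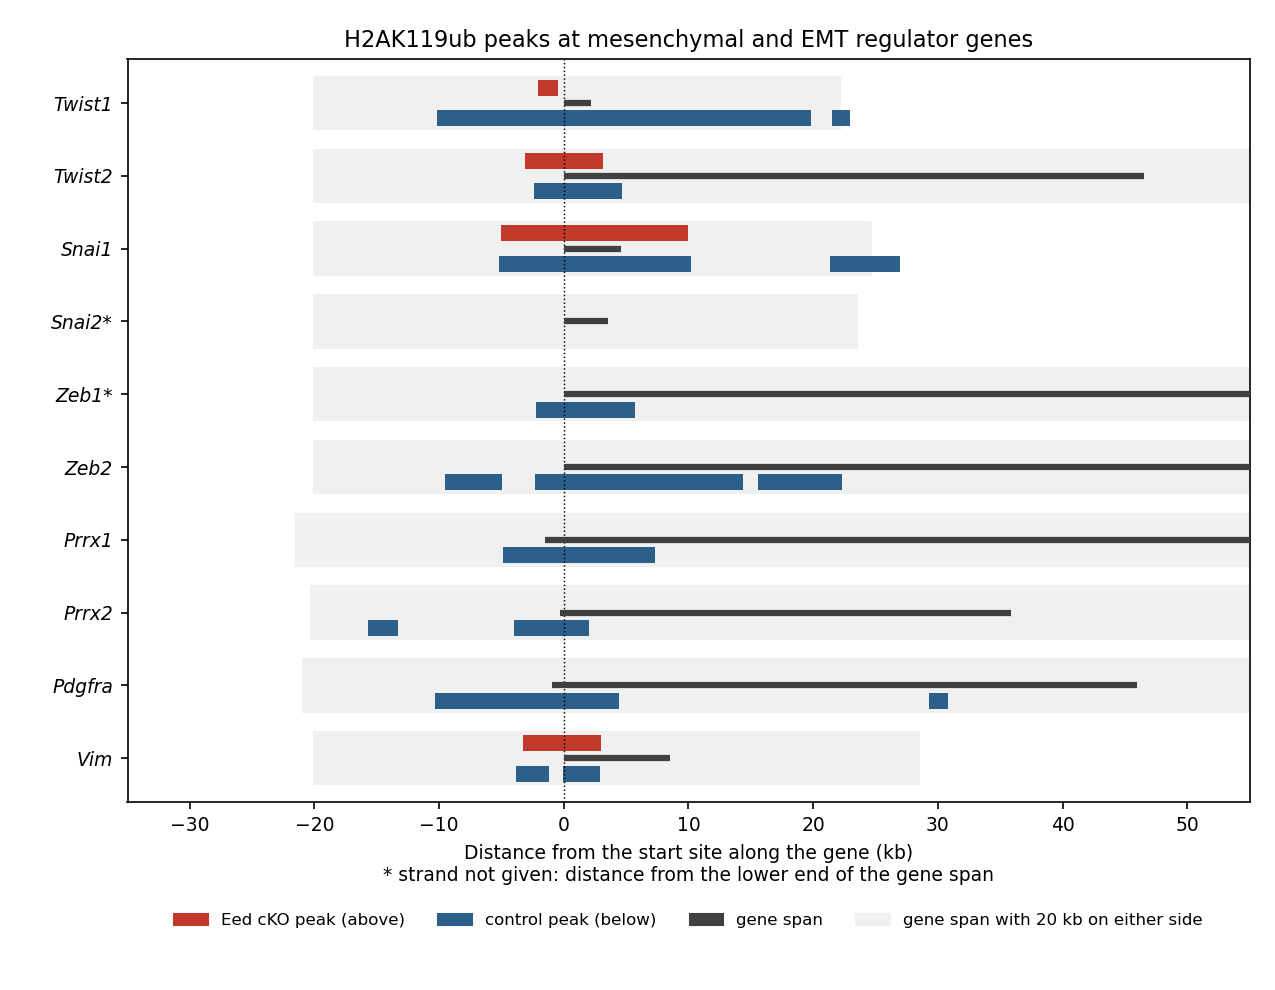
Peaks of the Eed cKO list (red, above each gene) and of the control list (blue, below it) by distance in kb from the start site. The gene span is a dark line and the window is grey. The start site is the outermost one among the RefSeq promoters read here, and for Prrx1, Prrx2 and Pdgfra it lies inside the gene span. Eed cKO peaks lie in 4 of 10 windows and control peaks in 9 of 10; for Snai2 and Zeb1 the distance is from the lower end of the gene span.

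The promoters below are examples: Eed cKO peaks lay over the whole promoter of Twist2, Snai1 and Vim and over none of that of Twist1, Pdgfra and Prrx1. Prrx2 and Zeb2, not printed, also had promoters that a control peak alone met. Of the promoters met by control alone, those of Pdgfra and Prrx1 had the fewest CpGs. The start sites of Pdgfra and Prrx1 lie inside their gene spans, so these promoters do not reach the upstream end of the span. The sequences are RefSeq promoters of build GRCm38.p6 (mm10), from 250 bases before to 50 bases after the start site, written 5′ to 3′ along the gene. Capitals mark each CpG.
Twist1, chr12:33957421-33957720, plus strand: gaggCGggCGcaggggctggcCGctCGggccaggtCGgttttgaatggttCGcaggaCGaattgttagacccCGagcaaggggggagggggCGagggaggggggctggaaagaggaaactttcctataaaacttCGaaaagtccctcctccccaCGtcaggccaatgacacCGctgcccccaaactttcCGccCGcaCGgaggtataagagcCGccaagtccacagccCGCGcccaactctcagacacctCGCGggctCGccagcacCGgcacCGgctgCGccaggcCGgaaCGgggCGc
Twist2, chr1:91801211-91801510, plus strand: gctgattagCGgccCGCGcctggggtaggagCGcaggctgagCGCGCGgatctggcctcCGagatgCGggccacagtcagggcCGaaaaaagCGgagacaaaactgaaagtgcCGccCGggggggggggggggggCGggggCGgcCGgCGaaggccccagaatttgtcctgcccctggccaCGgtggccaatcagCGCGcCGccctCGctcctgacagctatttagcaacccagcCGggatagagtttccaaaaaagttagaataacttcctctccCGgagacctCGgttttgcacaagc
Snai1, chr2:167537945-167538244, plus strand: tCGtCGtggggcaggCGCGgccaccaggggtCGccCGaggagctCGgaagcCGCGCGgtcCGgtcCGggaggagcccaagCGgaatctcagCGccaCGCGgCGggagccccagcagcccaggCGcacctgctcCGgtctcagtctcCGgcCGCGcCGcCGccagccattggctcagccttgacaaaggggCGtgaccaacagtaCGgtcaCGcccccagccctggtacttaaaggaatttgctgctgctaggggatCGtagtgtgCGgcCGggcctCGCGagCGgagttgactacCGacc
Prrx1, chr1:163313601-163313900, minus strand: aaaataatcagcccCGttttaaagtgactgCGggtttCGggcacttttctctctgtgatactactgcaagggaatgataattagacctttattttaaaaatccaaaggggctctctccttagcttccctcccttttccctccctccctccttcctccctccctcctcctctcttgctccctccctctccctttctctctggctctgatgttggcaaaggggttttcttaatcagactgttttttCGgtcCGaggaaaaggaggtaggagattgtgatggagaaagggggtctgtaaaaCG
Pdgfra, chr5:75152001-75152300, plus strand: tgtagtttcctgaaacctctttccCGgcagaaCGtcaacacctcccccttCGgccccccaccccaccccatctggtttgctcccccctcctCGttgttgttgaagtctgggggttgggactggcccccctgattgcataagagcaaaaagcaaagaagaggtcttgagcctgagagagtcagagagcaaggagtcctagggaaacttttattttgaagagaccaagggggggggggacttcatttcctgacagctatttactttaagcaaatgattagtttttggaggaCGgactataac
Vim, chr2:13574061-13574360, plus strand: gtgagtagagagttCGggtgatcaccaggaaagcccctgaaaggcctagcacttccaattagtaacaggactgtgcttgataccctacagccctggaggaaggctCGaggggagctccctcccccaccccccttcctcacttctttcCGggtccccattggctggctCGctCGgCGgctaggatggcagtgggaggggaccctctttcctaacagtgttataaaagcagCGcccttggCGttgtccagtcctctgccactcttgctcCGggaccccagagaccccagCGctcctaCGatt

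Of the 10 genes 8 had a promoter entry, all but Snai2 and Zeb1. Eed cKO peaks met a promoter of 3 of these 8 (Twist2, Snai1 and Vim), and control peaks met a promoter of all 8. Over the 17492 protein-coding genes with an entry the shares were 4.02% in Eed cKO and 6.90% in control. Of the genes with a control peak at a promoter, 44.7% also had an Eed cKO peak there. Zeb2 has 4 promoters in the table, and each of them lay wholly inside a control peak and outside every Eed cKO peak.

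Twist1, a basic helix-loop-helix factor of head and limb mesenchyme, spans 2161 bp on chromosome 12 (33957671 to 33959831). Its Eed cKO peak was 1665 bp wide (33955568 to 33957232), and its main control peak was 29995 bp wide (33947477 to 33977471). The control domain ran from 10.19 kb upstream to 19.80 kb downstream of the start site and held the whole gene. The Eed cKO peak lay inside this domain but stopped 438 bp short of the start site, so it touched neither the gene nor its promoter. In the ranking by width the Eed cKO peak was wider than 5.59% of its list and the control peak wider than 98.2% of its own. Eed cKO covered 5.55% of the domain. Of the 135 control peaks of at least 25 kb, 115 met an Eed cKO peak, with a median of 51.9% covered, and 0 of these 115 was covered to a lower share than the Twist1 domain. A second control peak of 1447 bp, 19.4 kb beyond the end of the gene, met no Eed cKO peak.

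Twist2, the paralog of Twist1 also known as Dermo1 and a factor of dermal fibroblast precursors, spans 46.57 kb on chromosome 1 (91801461 to 91848034). It had a 6260 bp peak in Eed cKO (91798343 to 91804602) and a 7057 bp peak in control (91799066 to 91806122). The Eed cKO peak ran from 3.12 kb upstream to 3.14 kb downstream of the start site, and the control peak from 2.40 kb upstream to 4.66 kb downstream. The peaks thus lay at the same promoter, with the Eed cKO peak shifted upstream at both edges. Eed cKO covered 78.5% of the control peak. The shared stretch made up 71.2% of the union of the peaks, against a median of 65.0% over the 1470 pairs in which 1 control peak met 1 Eed cKO peak. The order within the Twist pair differed between the lists: in Eed cKO the Twist2 peak was the wider, and in control the Twist1 peak was.

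Snai1, the zinc finger repressor Snail, spans 4620 bp on chromosome 2 (167538195 to 167542814). Its Eed cKO peak was 15054 bp wide (167533125 to 167548178), and its main control peak was 15327 bp wide (167533031 to 167548357). Both ran over the whole gene and the pseudogene Gm11474, from 5.07 kb upstream to 9.98 kb downstream of the start site in Eed cKO and from 5.16 kb upstream to 10.16 kb downstream in control. The Eed cKO edges lay 94 bp and 179 bp inside the control edges. The shared stretch was 98.2% of the union, and 16 of the 1470 pairs had a higher share. A second control peak of 5649 bp, 16.7 kb beyond the gene at the non-coding RNA gene Gm11476, had no Eed cKO counterpart.

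Snai2, the paralog also called Slug, spans 3544 bp on chromosome 16 (14705852 to 14709395). It is known for its expression in basal epidermal keratinocytes. The nearest Eed cKO peak lay 2560.6 kb away and the nearest control peak 2420.2 kb away. Within 250 kb on either side neither list had a peak. The Snail pair thus held a gene that both lists covered whole and a gene that neither approached.

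Zeb1 and Zeb2, large zinc finger and homeodomain repressors, had no Eed cKO peak within 250 kb on either side. Zeb1, on chromosome 18 (5591327 to 5775468), had no peak in Eed cKO and a 7920 bp peak in control (5589085 to 5597004). That control peak covered the lower end of the gene span, the first 5678 bp of 184.14 kb, and also met the non-coding RNA gene Gm10125. The nearest Eed cKO peak was 3609.5 kb away.

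Zeb2, on chromosome 2 (44983512 to 45117442), had no peak in Eed cKO and 3 in control, of 6757, 16701 and 4509 bp from low to high coordinate. The widest (45103060 to 45119760) ran from 2.32 kb upstream to 14.38 kb downstream of the outermost start site, over all 4 promoters, and met the antisense gene Zeb2os. The others lay 1194 and 2679 bp from it, inside the gene and upstream of it. Together they summed to 27.97 kb, the second largest control sum of the 10 genes after Twist1 with 31.44 kb. The nearest Eed cKO peak was 6053 kb away, the farthest of the 10 genes.

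Prrx1 and Prrx2, paired-related homeodomain factors, also had control peaks alone. Prrx1, on chromosome 1 (163245119 to 163315145), had no peak in Eed cKO and a 12241 bp peak in control (163306298 to 163318538). The control peak ran from 4.89 kb upstream to 7.35 kb downstream of the start site, and the nearest Eed cKO peak was 1146.2 kb away. Prrx2, on chromosome 2 (30845064 to 30881251), had no peak in Eed cKO and 2 in control, of 2452 and 5976 bp. The wider one (30841393 to 30847368) ran from 3.97 kb upstream to 2.00 kb downstream of the start site, and the narrower one lay 12991 bp before the gene. The Eed cKO peak nearest to Prrx2, 48.0 kb away at 1700001O22Rik, met no control peak. Both genes of the Prrx pair thus had a control peak over the promoter and none in Eed cKO, and the peak was wider at Prrx1.

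Pdgfra, which encodes the α receptor for platelet-derived growth factor, spans 46.88 kb on chromosome 5 (75151322 to 75198206). It had no peak in Eed cKO and 2 in control, of 14723 and 1543 bp. The wide control peak (75141939 to 75156661) ran from 10.31 kb upstream to 4.41 kb downstream of the start site and met the non-coding RNA gene Gm19583. The narrow one lay inside the gene span. The nearest Eed cKO peak was 65.1 kb from the gene, at the homeobox gene Gsx2.

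Vim, which encodes vimentin, spans 8516 bp on chromosome 2 (13574311 to 13582826). It had a 6265 bp peak in Eed cKO (13571055 to 13577319) and 2 peaks in control, of 2665 bp (13570434 to 13573098) and 2931 bp (13574278 to 13577208). The Eed cKO peak bridged the 1179 bp between the control peaks and covered 88.9% of their bases. It ran over all 300 bases of the promoter, of which the control peaks covered 83. Vim was the only one of the 10 genes whose summed width was larger in Eed cKO (6265 bp) than in control (5596 bp). The share of all protein-coding genes with the larger sum in Eed cKO is not given here, and the whole lists held 16.6 Mb in Eed cKO and 29.0 Mb in control. In the whole Eed cKO list 95 peaks (3.74%) met 2 or more control peaks. Both control peaks at Vim were under the median control width of 4327 bp.

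**Figure D2:**
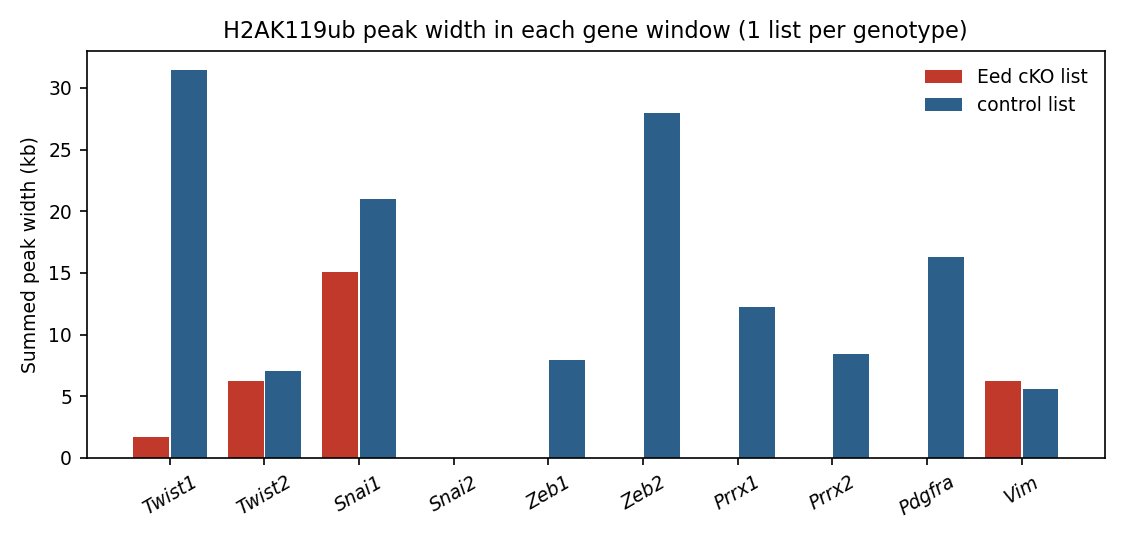
Summed width in kb of the peaks touching each gene window, in the Eed cKO list (red, left bar) and the control list (blue, right bar), with 1 list per genotype and no error bars. Only Vim has the larger sum in Eed cKO, and Snai2 has no bar in either list.

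Set side by side, the 8 Twist, Snai, Zeb and Prrx genes had an Eed cKO peak in 3 cases and a control peak in 7. Pdgfra and Vim had an Eed cKO peak in 1 case and a control peak in both. Eed cKO covered 19.2% of the 116.03 kb of control peaks at the 8 paralogs and 22.8% of the 21.86 kb at Pdgfra and Vim. Each share rested on few genes: most of the covered bases of the paralogs lay at Snai1 and Twist2, and all of those of Pdgfra and Vim lay at Vim. Within the paralogs the covered share was 18.7% for the Twist pair, 71.8% for the Snail pair and 0% for the Zeb and Prrx pairs. The Twist share joined 5.3% at Twist1 and 78.5% at Twist2. The Snail share was that of Snai1 alone, because Snai2 had no control peak. Groups of 8 and 2 genes in 1 list per genotype allow no test. The main Pdgfra peak had a width close to the main Snai1 and Zeb2 peaks, and the control peaks at Vim were narrower than the main control peak of each of the 7 marked paralogs.

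Control peak width did not separate the genes with an Eed cKO peak from those without. Of the 646 control peaks of at least 10 kb, 66.4% met an Eed cKO peak. The members had 5 such peaks: those at Twist1 and Snai1 met an Eed cKO peak, and those at Zeb2, Prrx1 and Pdgfra did not. The main Pdgfra peak (14723 bp) was wider than 92.8% of the control list and was not covered in Eed cKO at all. The main Snai1 peak (15327 bp) was wider than 93.2% of the list and was covered to 98.2%.

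**Figure D3:**
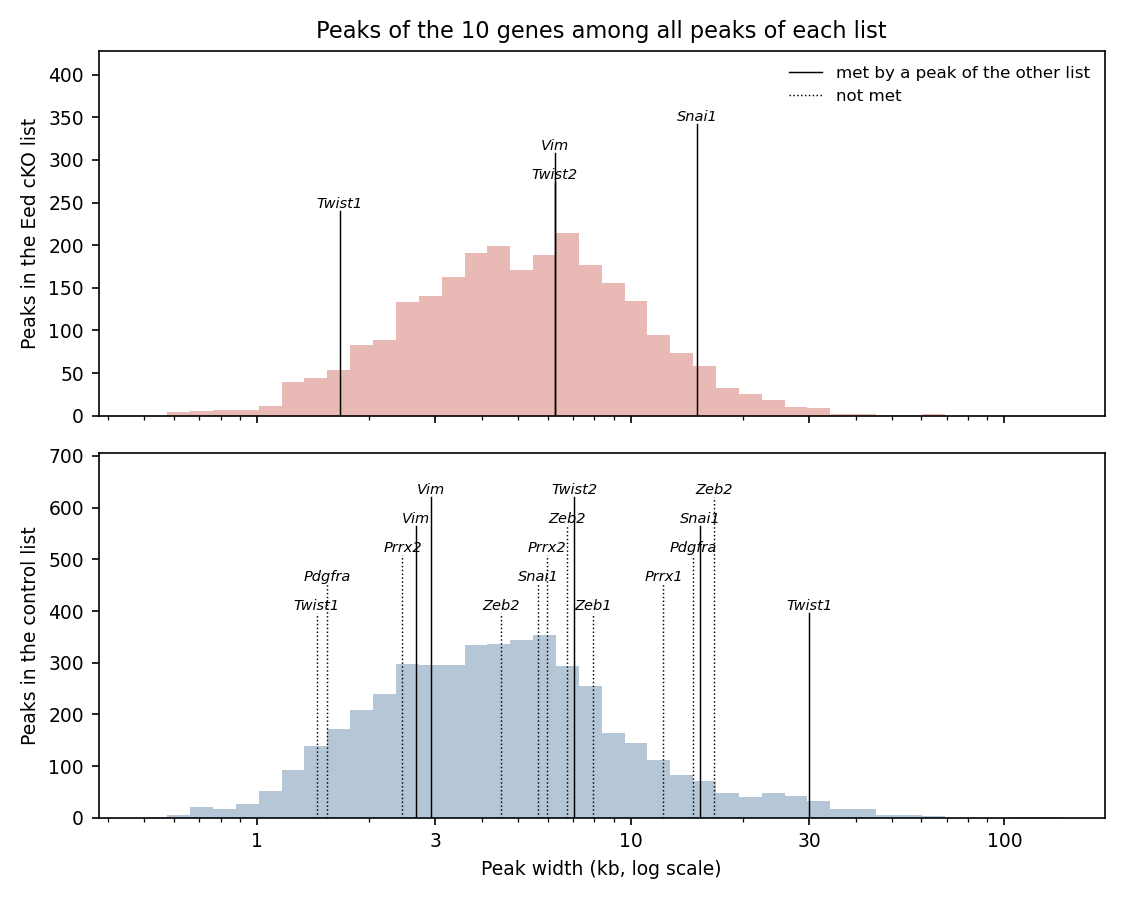
Width of each member peak (lines, labelled by gene) among all peaks of the Eed cKO list (upper panel) and the control list (lower panel), on a log axis in kb, with bars counting peaks. Solid lines are peaks met by a peak of the other list and dotted lines are not met; in the control panel both kinds lie on either side of the 4327 bp median.

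The promoters varied widely in base composition. Among those that peaks of both lists met, Snai1 had 34 CpGs, Twist2 had 25 and Vim had 11. Among those that a control peak alone met, Prrx2 had 28 and Twist1 27, while Prrx1 had 6 and Pdgfra 5, and the 4 Zeb2 promoters had 8 to 19. The ranges of the sets overlapped. The lowest counts, at Pdgfra and Prrx1, were in promoters that a control peak alone met. At both genes the start site used (75152251 and 163313650) lies inside the gene span, whose upstream end is at 75151322 and 163315145. The windows counted there thus leave out that end of the gene. Over all protein-coding genes the median was 21 CpGs in the 621 promoters met by peaks of both lists, 20.5 in the 194 met by Eed cKO peaks alone, 19 in the 788 met by control peaks alone and 12 in the 19660 met by neither.

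**Figure D4:**
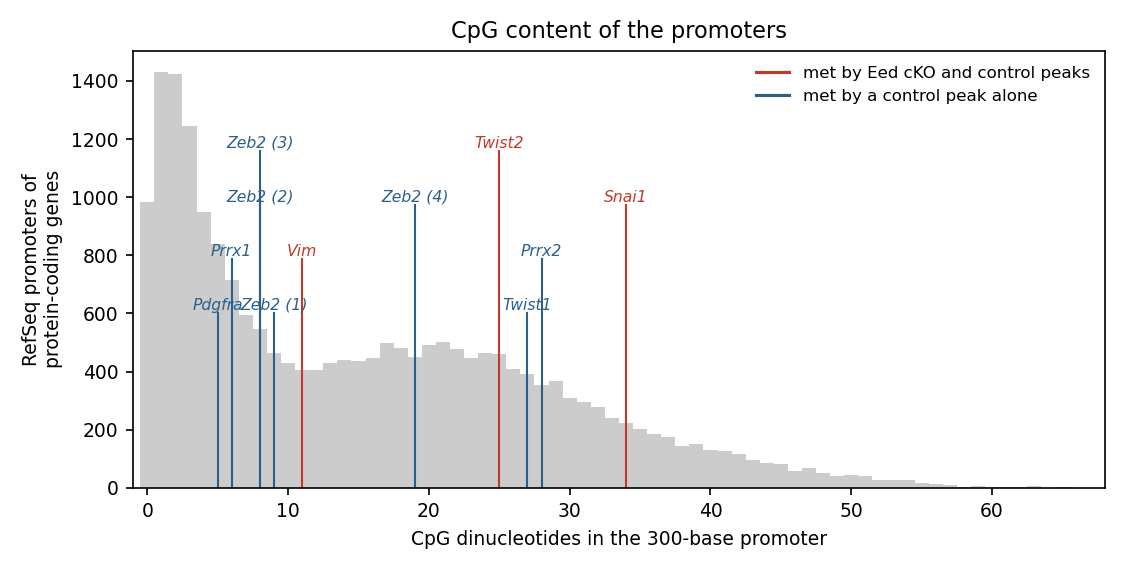
Number of CpG dinucleotides in the 300-base promoters of the members (lines) over the distribution for all 21263 promoters of protein-coding genes (grey bars). Promoters met by peaks of both lists (red) hold 11 to 34 CpGs and those met by a control peak alone (blue) 5 to 28.

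The letters CANNTG, the E-box core read by basic helix-loop-helix, Snail and Zeb factors, were found in 2 of the 8 members with a promoter, 1 match in Snai1 and 2 in Pdgfra. This motif reads the same on both strands. Of the 11 member promoters 2 held it, against 69.0% of all promoters. The share was 62.0% of promoters met by peaks of both lists and 64.3% of those met by control peaks alone. Of the 11 promoters 4 belong to Zeb2, and some of these overlap each other, so the 11 are not separate. The CANNTG variant CACCTG, or CAGGTG on the other strand, is bound by Snail and Zeb factors. It occurred once, in Snai1, and in 19.7% of all promoters. These are matches of letters in a 300-base window, not binding sites.

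Relatives and partners of these genes were read in the same windows, and their counts stand beside the 14.3% of all genes with an Eed cKO peak and the 21.2% with a control peak. Of 9 Twist-related basic helix-loop-helix genes 4 had an Eed cKO peak and 7 a control peak. Hand2, a heart and limb factor, had 12.86 kb of peaks in Eed cKO and 56.67 kb in control, the widest control peak of the list. Eed cKO covered 31.3% of this control peak, more than the peaks in the window could cover. Part of the cover thus came from Eed cKO peaks beyond the window. Hand1, the paralog of Hand2, had 5.00 kb in Eed cKO and 17.25 kb in control. Tcf15, a somite factor, had 5.56 kb in Eed cKO and 7.03 kb in control. Ferd3l, whose span lies 28.4 kb from Twist1, had no Eed cKO peak in its window. In control it had a 4259 bp peak over its span and shared the Twist1 domain.

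The 3 Snail relatives each had a different pattern. Snai3 had 10.46 kb of peaks in Eed cKO and 8.30 kb in control, of which Eed cKO covered 82.8%. Scrt1, a neuronal factor, had no peak in Eed cKO and 11.98 kb in control. Scrt2 had 3.89 kb in Eed cKO and no peak in control. Of 17 other transcription factors linked to EMT, 12 had an Eed cKO peak and 11 a control peak. They included Sox9 (9.68 kb in Eed cKO, 8.57 kb in control), Tbx3 (18.65 kb in Eed cKO, 38.84 kb in control) and Foxc2 (17.16 kb in Eed cKO, 26.93 kb in control). Of the 13 factors with a peak in either list, 5 had the larger sum in Eed cKO and 8 in control. Over all lists of relatives, the larger sum was in Eed cKO for 18 of 51 such genes and in control for 33. No share over all protein-coding genes is given beside these counts, so they cannot be called high or low.

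Of 9 genes for PDGF ligands, receptors and relatives 4 had an Eed cKO peak and 5 a control peak. Pdgfa, a ligand of the Pdgfra receptor, had 15.34 kb of peaks in Eed cKO and 10.83 kb in control. Pdgfrb, the β receptor, had 12.21 kb in Eed cKO and 5.71 kb in control, outside its span in both. Flt3, a related receptor of blood progenitors, had 21.30 kb in Eed cKO and 30.20 kb in control. Of 9 intermediate filament genes other than Vim and the keratins, 6 had an Eed cKO peak and 8 a control peak. Among these were the neuronal filament genes Ina (6.16 kb in Eed cKO, 6.31 kb in control) and Nefh (6.77 kb in Eed cKO, 6.64 kb in control) and the progenitor filament gene Nes (20.87 kb in Eed cKO, 37.40 kb in control). In the window of Nes, 1 of 2 Eed cKO peaks and 1 of 5 control peaks touched the gene span.

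Genes that mesenchymal cells use for attachment and matrix were read as a list of their own. Of 17 genes for mesenchymal adhesion, cytoskeleton and matrix 2 had an Eed cKO peak and 4 a control peak. Those with peaks in both were Mmp9, a matrix protease (10.97 kb in Eed cKO, 8.67 kb in control), and Col1a1, a collagen gene whose peaks (5.30 kb in Eed cKO, 11.23 kb in control) lay outside its span. Cdh11, a mesenchymal cadherin, and Thy1, a fibroblast surface protein, had window peaks in control alone, and that of Thy1 met an Eed cKO peak that lay beyond the window. Of 10 TGF-β pathway genes 3 had an Eed cKO peak and 3 a control peak, and Tgfb2, a ligand, had no peak in Eed cKO and 4 in control, summing to 31.79 kb. Tgfbr3, a co-receptor, had 2.63 kb in Eed cKO and 1.39 kb in control, in peaks that did not overlap. The Eed cKO peak touched its span and the control peak lay outside it. Of 15 epithelial identity genes 3 had an Eed cKO peak and 4 a control peak. Grhl3, an epidermal differentiation factor, had 27.46 kb in Eed cKO and 8.34 kb in control. Ovol1, an epithelial zinc finger factor, had 2.58 kb in Eed cKO and 2.79 kb in control, outside its span in both. Cdh1, the target of Snail and Zeb repression, had no peak in either list.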

How the data were processed

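H2AK119ub ChIP-seq peaks of epidermal progenitors were read from 2 lists, 1 for Eed cKO and 1 for control, each for a group of 2 libraries. Per the file headers, the authors deposited chromosome, start and end of each peak, with no score, height or p-value. The submitters' processing notes name build mm10, Bowtie2 2.3.3.1 and SAMtools 1.9. Which caller and threshold gave the peaks, whether inputs were used and how libraries were joined is not given in the sources used here. Starts were read as counted from 0, as in BED files, and positions are printed counted from 1.

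Gene spans came from a RefSeq table of GRCm38.p6, the assembly also called mm10, with 21887 protein-coding genes (mitochondrial genes left out). A peak belonged to a gene if it touched the span or the 20 kb on either side by at least 1 bp. Start sites, strand and sequence came from the RefSeq promoter table. For Prrx1, Prrx2 and Pdgfra the start site given there lies inside the gene span. Distances upstream of it are thus not distances from the end of the span. The same counts over all protein-coding genes serve as background. A covered share is the percent of bases, whole control peaks counted, that lie under Eed cKO peaks. The members, the gene lists and the window were chosen with earlier results of these data known. Named genes outside the members are relatives from these lists with peaks in both lists or the widest control peak of their list, up to 3 per list. Not every gene that this rule allows is reported here. Where more than 3 genes of a list qualified, the ones named were picked with their values in view. Gsx2, Scrt2, Ferd3l, Cdh1, Cdh11, Thy1, Smad3, Smad7, Kit, Kdr and 1700001O22Rik were named after their values were seen. All 89 listed relatives were found, 1 of them under a synonym. No test was made: a list has no replicate, and genes and peaks are not replicates. Alternatives were other windows, a stricter or trimmed list, merging, stricter overlap, nearest-gene assignment and, chosen after seeing the data, promoters alone. The functions were tested on simulated data. Python 3.11.15, numpy 2.4.6, pandas 2.3.3 and matplotlib 3.10.9 were used.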

Additional observations from a re-analysis of the deposited data

How the results depend on the processing

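The number of members with an Eed cKO peak was 3 to 5 under each alternative, and the number with a control peak was 8 or 9. Twist1 had no Eed cKO peak with the gene span alone (3 members), with the wider peaks of each list (3) or, in an alternative chosen after seeing the data, at promoters (3). Prrx2 gained one with 50 kb on either side (5 members). The number with a control peak met by an Eed cKO peak was 2 with the wider peaks of each list, where Twist1 and Vim dropped out by the width rule itself, and 3 or 4 under the other alternatives, promoters not computed. The covered share of control bases, 19.7%, was 20.8% with the gene span, 21.2% with 5 kb, 21.9% with 50 kb, 16.2% with the wider peaks, 17.5% with the trimmed control list, 19.96% with 50% overlap and 20.1% with nearest-gene assignment. Merging peaks within 1000 bp left it at 19.7%. Zeb1, Zeb2, Prrx1 and Pdgfra had no Eed cKO peak under any of these settings. None of the settings could have given one, because their nearest Eed cKO peaks lay 65.1 kb away (Pdgfra) or farther, beyond the widest window of 50 kb. Of 24 counts for the relatives 23 stayed within 1.5 times. No paired analysis was possible because each genotype has 1 peak list and the lists carry no replicate numbers. Depth is unknown, so a missing peak sets no limit on the mark.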

Other observations

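Pdgfra lies in a row of receptor tyrosine kinase genes on chromosome 5, next to the homeobox gene Gsx2. From Gsx2 (73.4 kb from Pdgfra) to Kdr (734.6 kb), Eed cKO had 1 peak and control had 5. The Eed cKO peak, 21.30 kb wide at Gsx2, lay wholly inside a 26.72 kb control peak and covered 79.7% of it. The 4 other control peaks, at Pdgfra (14.72 and 1.54 kb), Kit (5.45 kb) and Kdr (5.87 kb), met no Eed cKO peak. Kit encodes the stem cell factor receptor and Kdr a receptor for vascular endothelial growth factor.

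The surroundings of the members differed. With 250 kb on either side, Snai1 had 9 Eed cKO and 14 control peaks among 7 other protein-coding genes, Prrx2 had 1 Eed cKO and 7 control peaks among 10, and each other member had at most 1 Eed cKO and 3 control peaks. Of the 89 relatives, 7 had an Eed cKO peak but no control peak in their window. Smad3 and Smad7, which carry or restrain TGF-β signals, were 2 of these, with peaks of 8.64 and 9.84 kb, and the rest came from other lists. The reverse held for 15 of the 44 relatives with a control peak, and 2 of the 15 were TGF-β pathway genes. The other 29 of the 44 had peaks of both lists in their window. Over all protein-coding genes, 2552 of the 3131 with an Eed cKO peak in their window also had a control peak there. Of the 4635 with a control peak in their window, the same 2552 (55.1%) also had an Eed cKO peak there.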
